A study of Homo sapiens with 21 samples.

Results

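A set of 9 genes that the transcription factor NRF2 is known to switch on was followed in C3A cells, a clone of the human hepatoma line HepG2. The genes were taken from the tables by symbol, by a rule that uses no measured value, though with earlier results of these data known. They were NQO1, HMOX1, TXNRD1, GCLM, GCLC, SRXN1, TXN, PRDX1 and OSGIN1, so 9 of the 28808 genes listed, and all 9 were among the 13405 genes tested. RNA sequencing covered 21 libraries of wild-type C3A cells. Of these, 6 were from cells given no compound (listed time 0 h) and 3 from each of 5 exposures of 48 h. One was the weed killer glyphosate, at 5.6 µM (0.95 µg/mL). Another was AMPA, into which soil microbes turn glyphosate, at 34 µM (3.7 µg/mL), and another 2,4-D, a synthetic auxin, at 2.5 µM (0.56 µg/mL). The last 2 were mixtures, glyphosate+2,4-D as well as AMPA+2,4-D, which held each compound at the concentration used alone. The labels state no vehicle for the unexposed cells and leave it unsaid if each replicate is its own culture, so p-values measure the spread between these libraries only.

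NRF2, encoded by NFE2L2, is held in the cytoplasm by KEAP1, which hands it to a CUL3 ubiquitin ligase for degradation. Oxidants and electrophiles modify KEAP1, NRF2 then builds up in the nucleus, pairs with a small MAF protein and binds antioxidant response elements, while BACH1 competes for the same sites and keeps HMOX1 in particular repressed. The targets make glutathione, keep thioredoxin reduced, detoxify quinones and break down heme, which in liver cells protects against reactive drug and pesticide metabolites.

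The short sequences below show where the antioxidant response element core TGACNNNGC, or the related AP-1 core TGANTCA, matched in the members' promoters. The promoters were searched whatever the level of their genes. Matches fell in GCLM, TXNRD1 and OSGIN1, and a link to the differences of these genes between libraries was not tested. Promoters of RefSeq (GRCh38.p14), each running from 250 bases before to 50 bases after the start of transcription, matched 7 of the 9 genes, with 8 promoters. HMOX1 and PRDX1 are named only. The OSGIN1 start used, at 83953240 on chromosome 16, lies inside the span given for this gene below, which begins at 83948282. Both strands were searched. A further element core, on the opposite strand 8 bases before the upstream TXNRD1 start, was found and is not shown. Each sequence is on the strand of the gene, from 5′ to 3′, with 20 bases to either side and the motif in capitals.
GCLM (chr1:93909436-93909484, minus strand, element on the opposite strand, 34 bases before the start): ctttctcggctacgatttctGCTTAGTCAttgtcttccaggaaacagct
TXNRD1, upstream start (chr12:104215660-104215708, plus strand, 99 bases before the start): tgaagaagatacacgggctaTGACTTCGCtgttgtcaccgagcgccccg
TXNRD1, downstream start (chr12:104286910-104286958, plus strand, element on the opposite strand, 102 bases before the start): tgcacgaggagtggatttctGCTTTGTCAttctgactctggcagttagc
OSGIN1 (chr16:83953123-83953169, plus strand, AP-1 core, 97 bases before the start): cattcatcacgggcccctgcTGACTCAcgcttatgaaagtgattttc
The element core was in 3 of the 8 members' promoters, from 2 genes, and in 13.3% of all 35116 promoters of this length. The AP-1 core was in 1 of the 8 and in 7.71% of all. A match gives letters only and does not show binding, and a promoter without a match says nothing of elements farther away.

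Depth was 15.2 to 24.35 M reads a library, worked out from the deposited FPKM values (fragments per kilobase of gene, scaled to the library's reads). In each library the members rested on 129 to 495 reads for SRXN1, the lowest, and on 11363 to 21538 for NQO1, the highest. The hepatocyte markers fixed for the check (such as ALB, APOB and HNF4A) were present, 9 of 9, at a summed level of 5630 to 6060 FPKM in unexposed replicates 1 to 3, 8130 to 9300 in replicates 4 to 6 and 9140 to 10700 in exposed cells. No endothelial marker of 4 reached 1 FPKM, and of 5 fibroblast markers 1 did, PDGFRB at 1.22 to 2.78 FPKM, with COL1A1 and COL3A1 at most at 0.0201. Of 4 leukocyte markers, PTPRC and CD3E were at 0 or not listed, CD68 reached 0.199 FPKM, and LYZ was high, the sum being 324 to 344 FPKM in replicates 1 to 3, 567 to 615 in replicates 4 to 6 and 473 to 625 in exposed cells. Of 4 cholangiocyte markers 3 reached 1 FPKM, EPCAM at 78.2 to 97.7, SOX9 at 27.9 to 41.1 and KRT19 at 18.7 to 33.3. KRT7 was at most at 0.0356, and the 4 summed to 136 to 160 FPKM in all libraries. Ribosomal protein genes took 7.269 to 7.472% of FPKM in unexposed replicates 1 to 3, 8.258 to 8.493% in replicates 4 to 6 and 9.268 to 10.355% in exposed libraries. Hepatocyte markers, LYZ and ribosomal protein genes thus differed between the same sets of libraries as the members below. They were lowest in replicates 1 to 3, where the means of the members were highest, and their part in the results was not tested.

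The unexposed cells differed among themselves in these 9 genes. All 9 were higher in unexposed replicates 1 to 3 than in replicates 4 to 6, without overlap, where 15.9% of all genes were called higher. A gene is called here if its Benjamini-Hochberg adjusted p in limma, over all genes tested, is under 0.05. On log2(FPKM + 1), the scale of every log2 difference below, OSGIN1 differed by 1.62 ± 0.06 (SE), TXNRD1 by 1.60 ± 0.06 and GCLM by 1.59 ± 0.09. SRXN1 (0.98 ± 0.07) and HMOX1 (0.94 ± 0.06) came next, followed by GCLC (0.66 ± 0.04), NQO1 (0.57 ± 0.03), TXN (0.49 ± 0.05) and PRDX1 (0.25 ± 0.05). In linear FPKM the mean of replicates 1 to 3 was 3.43 times that of replicates 4 to 6 for OSGIN1, 3.32 times for GCLM, 3.09 times for TXNRD1 and 1.19 times for PRDX1. These sets were first seen in the same libraries and the labels name no batch, so the difference is a description of them. It bears on every comparison with unexposed cells, so each exposure was compared with each set as well as with all 6. The labels tie no exposed library to either set, so an effect of exposure and one of whatever exposed libraries share cannot be told apart. Among what they share is the listed time, 48 h, where unexposed libraries have 0 h. In such bulk samples, fewer cells of a type and less RNA per cell cannot be told apart either.

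**Figure D1:**
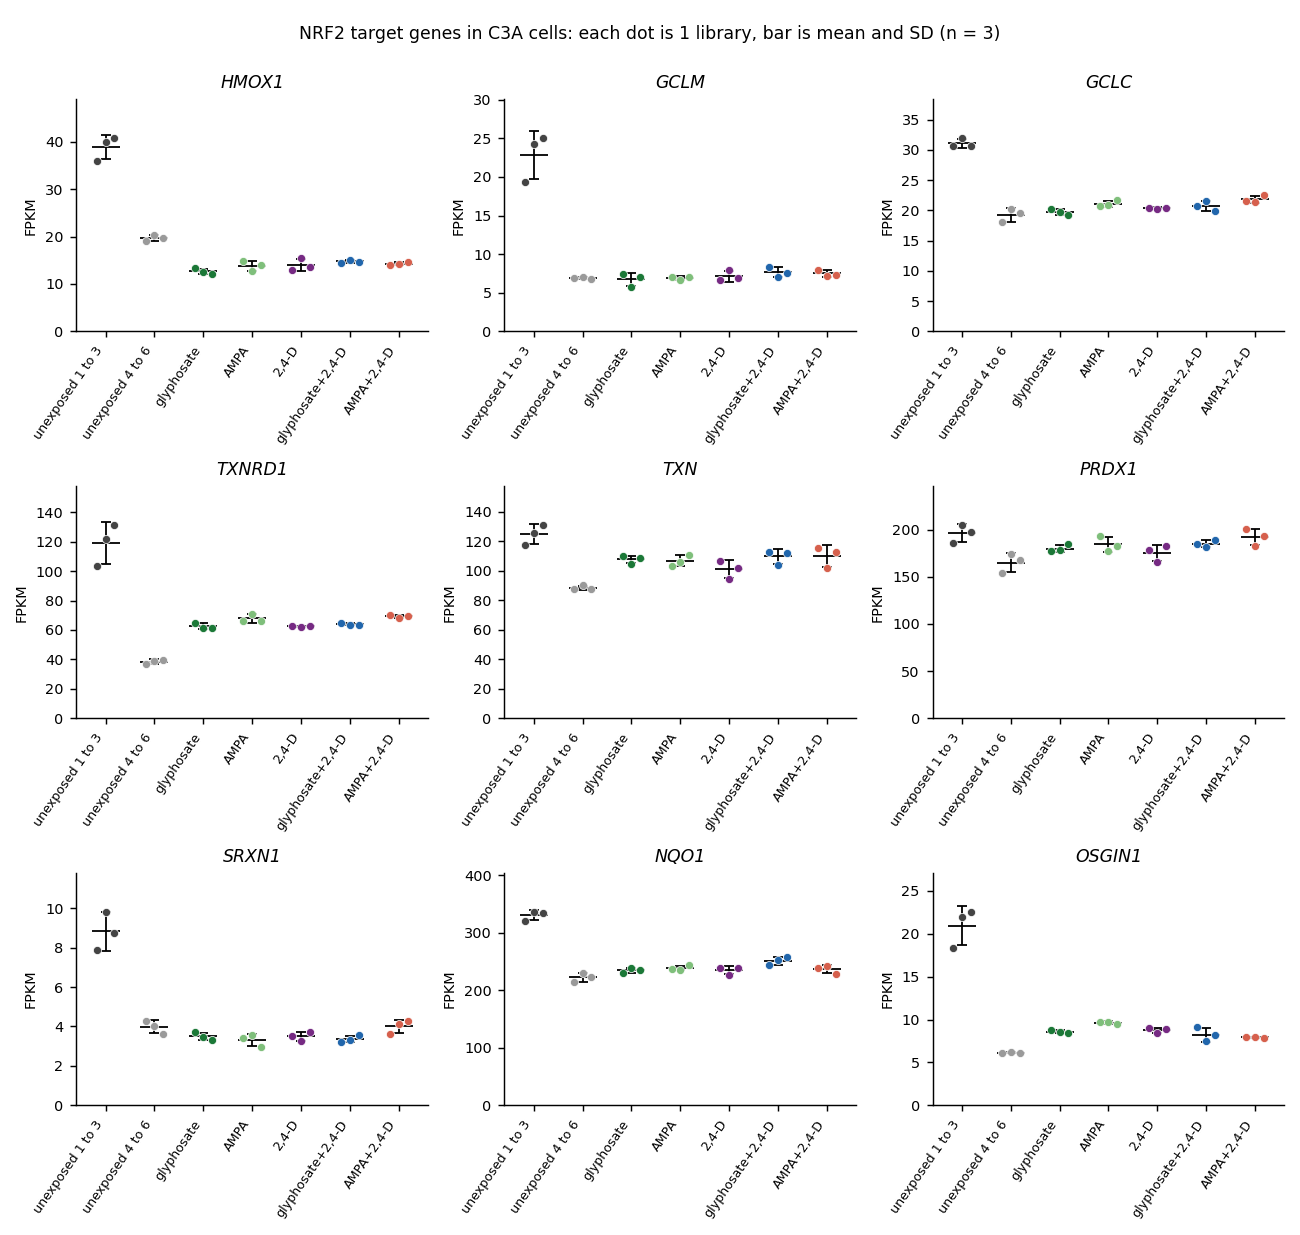
FPKM of the 9 NRF2 target genes (vertical axes, linear, from 0) in unexposed replicates 1 to 3, unexposed replicates 4 to 6 and the 5 exposures (horizontal axis), with each dot 1 library and bars the mean and SD of 3 libraries. The mean of unexposed replicates 1 to 3 is the highest for each gene, though for PRDX1 some exposed libraries overlap with that set. HMOX1 is lower in all 15 exposed libraries than in both unexposed sets, and TXNRD1, TXN and OSGIN1 in exposed libraries lie between the sets.

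Against unexposed replicates 1 to 3, 8 of the 9 genes were lower in every exposure, and PRDX1 was lower with glyphosate and with 2,4-D. The counts were 9 of 9 with glyphosate, 8 with AMPA, 9 with 2,4-D, 8 with glyphosate+2,4-D and 8 with AMPA+2,4-D, where 27.7, 27.7, 26.3, 26.7 and 26.7% of all genes were called lower. No member was called higher, where 29.8, 30.3, 27.9, 28.2 and 28.6% of all genes were, in the same order. The median log2 difference of the 9 ran from -0.91 to -0.77, and that of all genes from 0.00 to 0.02. Against unexposed replicates 4 to 6 the genes parted. Higher were 4 with glyphosate (27.1% of all genes), 6 with AMPA (27.6%), 3 with 2,4-D (24.7%), 6 with glyphosate+2,4-D (25%) and 6 with AMPA+2,4-D (26.3%). Lower were 1 with glyphosate (23.9%), 2 with AMPA (23.7%), 1 with 2,4-D (21.7%), 2 with glyphosate+2,4-D (21.8%) and 1 with AMPA+2,4-D (24%). The 5 exposures share these unexposed libraries, so their counts are not independent of each other.

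**Figure D2:**
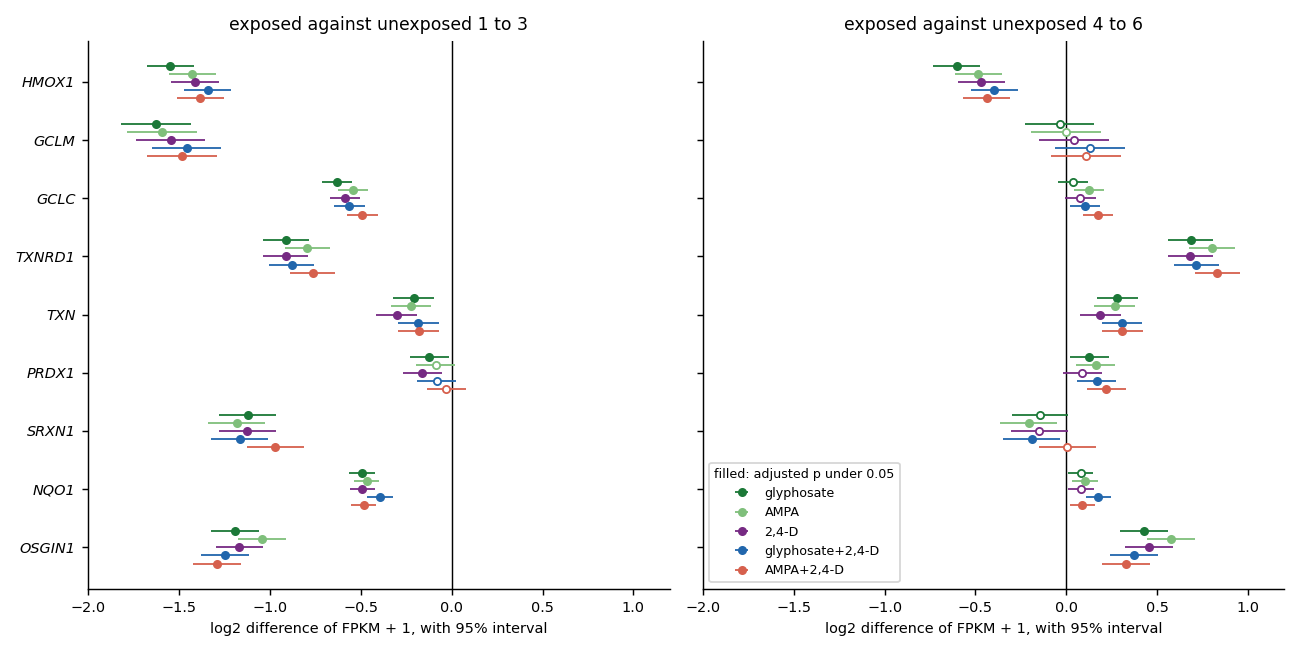
Log2 difference of FPKM + 1 (horizontal axis) with its 95% interval for each gene and exposure, against unexposed replicates 1 to 3 (left) and replicates 4 to 6 (right), with filled circles for a limma adjusted p under 0.05. HMOX1 stays left of 0 in both panels, at -1.55 to -1.34 and -0.60 to -0.40, while TXNRD1 moves from -0.91 to -0.76 on the left to 0.68 to 0.83 on the right. After rescaling to TPM these keep their sides, and NQO1 and GCLC on the right fall to either side of 0. GCLM on the right lies to either side of 0 with or without rescaling.

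HMOX1 (ENSG00000100292, GRCh38 chromosome 22, 35380361 to 35394214, plus strand) encodes the inducible heme oxygenase, which splits heme into biliverdin, iron and carbon monoxide. It was the 1 member lower in every exposure than in either unexposed set. Its level was 36.0, 40.0 and 40.8 FPKM in unexposed replicates 1 to 3, and 19.2, 20.4 and 19.6 in replicates 4 to 6. Glyphosate libraries gave 13.3, 12.4 and 12.2 FPKM, AMPA libraries 14.8, 12.7 and 14.0, and 2,4-D libraries 13.0, 15.5 and 13.5. Glyphosate+2,4-D libraries gave 14.4, 15.1 and 14.7 FPKM, and AMPA+2,4-D libraries 13.9, 14.3 and 14.7. All 15 exposed libraries lay below all 6 unexposed ones, and the glyphosate libraries lay below those of both mixtures, while the ranges of all other pairs of exposures overlapped. Against replicates 4 to 6 the log2 difference ran from -0.60 (glyphosate) to -0.40 (glyphosate+2,4-D), with SE 0.06 and limma adjusted p from 3.68e-07 to 4.8e-05. Against replicates 1 to 3 it ran from -1.55 to -1.34. Bringing each library to the same FPKM total, which turns FPKM into TPM, moves the median of all genes against unexposed cells from between 0.001 and 0.014 to between -0.135 and -0.069. On that scale HMOX1 differed from replicates 4 to 6 by -0.71 to -0.52 and stayed called in all 5. The mean of all exposed libraries was 0.705 times that of replicates 4 to 6 and 0.357 times that of replicates 1 to 3. The paralog HMOX2, which encodes the constitutive enzyme, lay at 7.58 to 8.65 FPKM in replicates 1 to 3, 8.54 to 9.13 in replicates 4 to 6 and 7.48 to 8.78 in exposed cells, and it was called in no exposure against either set, at adjusted p of at least 0.0997. After rescaling to TPM, however, HMOX2 was called lower than all 6 unexposed libraries in all 5 exposures, by -0.24 to -0.16. The ratio of HMOX1 to HMOX2 was 4.73 ± 0.558 (SD, n = 3) in replicates 1 to 3, 2.25 ± 0.148 in replicates 4 to 6 and 1.48 to 2.02 in the 15 exposed libraries.

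GCLC and GCLM encode the catalytic and modifier subunits of glutamate-cysteine ligase, the rate-limiting enzyme of glutathione synthesis. GCLM (ENSG00000023909, chromosome 1, 93885205 to 93909456, minus strand) stood at 19.3, 24.3 and 25.1 FPKM in unexposed replicates 1 to 3, and at 6.95, 7.0 and 6.75 in replicates 4 to 6. With glyphosate it stood at 7.37, 5.77 and 7.05 FPKM, with AMPA at 7.04, 6.62 and 6.98, and with 2,4-D at 6.63, 7.96 and 6.88. With glyphosate+2,4-D it stood at 8.31, 7.09 and 7.59 FPKM, and with AMPA+2,4-D at 8.0, 7.19 and 7.35. The exposed libraries lay around replicates 4 to 6, with 10 of 15 above that set and 3 below it, and all 15 lay below replicates 1 to 3. GCLM was called in no exposure against replicates 4 to 6, where log2 differences were -0.04 to 0.13 (SE 0.09) and the 95% intervals together spanned -0.23 to 0.32. Against replicates 1 to 3 the log2 difference was -1.63 to -1.46, called in all 5.

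GCLC (ENSG00000001084, chromosome 6, 53497341 to 53616970, minus strand) was at 30.6, 32.0 and 30.6 FPKM in unexposed replicates 1 to 3 and at 18.0, 20.2 and 19.5 in replicates 4 to 6. Exposed libraries ran from 19.3 to 22.5 FPKM with a median of 20.7, so 11 of 15 were above replicates 4 to 6 and all were below replicates 1 to 3. Against replicates 4 to 6 it was called higher with AMPA (0.12 ± 0.04), glyphosate+2,4-D (0.10 ± 0.04) and AMPA+2,4-D (0.17 ± 0.04), and after rescaling to TPM none of these calls remained and the differences ran from -0.04 to 0.09. The 2 subunits also differed in proportion. GCLC stood to GCLM as 1.37 ± 0.189 to 1 (SD, n = 3, in FPKM) in replicates 1 to 3 and as 2.79 ± 0.17 in replicates 4 to 6, and as 2.49 to 3.41 in exposed libraries. The ratio in every exposed library was thus above the 1.22 to 1.58 of replicates 1 to 3. A short opposite-strand gene, AL033397.2, shares 7 bases of exon with GCLC and was at 0.519 to 6.3 FPKM.

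The thioredoxin system moves electrons from NADPH through thioredoxin reductase (TXNRD1) to thioredoxin (TXN), which reduces peroxiredoxins such as PRDX1, and sulfiredoxin (SRXN1) repairs peroxiredoxins that peroxide has over-oxidised. TXNRD1 (ENSG00000198431, chromosome 12, 104215779 to 104350305, plus strand) was at 104, 122 and 131 FPKM in unexposed replicates 1 to 3 and at 36.8, 39.1 and 39.7 in replicates 4 to 6. Glyphosate libraries gave 64.9, 61.5 and 61.1 FPKM, AMPA libraries 66.1, 71.1 and 66.4, and 2,4-D libraries 62.5, 62.2 and 62.5. Glyphosate+2,4-D libraries gave 64.7, 63.4 and 63.4 FPKM, and AMPA+2,4-D libraries 70.1, 68.2 and 69.5. All 15 exposed libraries thus fell in the gap between the unexposed sets and overlapped with neither. Against replicates 4 to 6 TXNRD1 was higher by 0.68 to 0.83 (SE 0.06, limma adjusted p from 8.41e-09 to 8.76e-08), and by 0.62 to 0.75 after rescaling to TPM. Against replicates 1 to 3 the log2 difference was -0.91 to -0.76. A mean over all 6 unexposed libraries, 78.7 FPKM, hides both, since the exposed mean of 65.2 lies near it.

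TXN (ENSG00000136810, chromosome 9, 110243811 to 110256640, minus strand) showed the same order with smaller steps. It was at 118, 126 and 131 FPKM in unexposed replicates 1 to 3, at 87.6, 90.1 and 87.7 in replicates 4 to 6, and at 94.5 to 115 in exposed libraries, with a median of 106. All 15 lay between the sets. Against replicates 4 to 6 it was higher by 0.19 (2,4-D) to 0.31 (AMPA+2,4-D), SE 0.05, with limma adjusted p from 0.000127 to 0.0074. After rescaling to TPM the call with 2,4-D was lost (adjusted p = 0.0654) and the other 4 held. The ratio of TXN to TXNRD1 was 0.997 to 1.13 in replicates 1 to 3, 2.21 to 2.38 in replicates 4 to 6 and 1.49 to 1.77 in exposed libraries, so the 3 kinds of library did not overlap in it. The mitochondrial counterparts in replicates 1 to 3 and 4 to 6 lay at 22.1 to 25.3 and 24.4 to 24.8 FPKM (TXN2), and at 2.5 to 2.59 and 2.05 to 2.19 FPKM (TXNRD2). In exposed cells TXN2 was at 23.1 to 29.1 FPKM and TXNRD2 at 1.4 to 2.15. Against all 6 unexposed libraries TXN2 was called higher in 3 exposures, with differences of 0.00 to 0.21 that became -0.11 to 0.12 with no call after rescaling to TPM. TXNRD2 was called lower in 4 (-0.38 to -0.17), and in 5 after rescaling to TPM. TXN2 was called higher than replicates 4 to 6 in 2 exposures and TXNRD2 lower in 1.

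PRDX1 (ENSG00000117450, chromosome 1, 45511036 to 45523047, minus strand), an abundant cytosolic peroxidase, differed least between the unexposed sets. It was at 186, 205 and 198 FPKM in unexposed replicates 1 to 3, at 154, 174 and 167 in replicates 4 to 6, and at 166 to 200 in exposed libraries, which overlapped with both sets. It was called higher than replicates 4 to 6 in 4 exposures, from 0.13 ± 0.05 with glyphosate to 0.22 ± 0.05 with AMPA+2,4-D, and after rescaling to TPM in 1. Its exons overlap by 379 bases those of MMACHC on the other strand, which was at 1.1 to 3.32 FPKM. The strand of the library kit is not stated, so reads of such pairs cannot be told apart.

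SRXN1 (ENSG00000271303, chromosome 20, 646615 to 653370, minus strand) was the lowest of the 9. It was at 7.90, 9.83 and 8.76 FPKM in unexposed replicates 1 to 3, at 4.28, 4.04 and 3.63 in replicates 4 to 6, and at 2.98 to 4.25 in exposed libraries. All 15 lay below replicates 1 to 3, and 11 lay below replicates 4 to 6 too. Against replicates 4 to 6 it was called lower with AMPA (-0.21 ± 0.07) and glyphosate+2,4-D (-0.19 ± 0.07), and after rescaling to TPM in 4 exposures. With AMPA+2,4-D the difference was 0.01 ± 0.07, with a 95% interval of -0.15 to 0.16. A listed pseudogene of SRXN1 reached 0.585 FPKM and one of TXN 0.411, and how reads shared with such copies were counted is not given in the sources used here.

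NQO1 (ENSG00000181019, chromosome 16, 69706996 to 69726951, minus strand), which reduces quinones by 2 electrons at once and is a common reporter of NRF2 activity, was the most abundant of the 9. It was at 321, 336 and 335 FPKM in unexposed replicates 1 to 3, at 215, 230 and 222 in replicates 4 to 6, and at 227 to 257 in exposed libraries, of which 13 of 15 were above replicates 4 to 6. Against replicates 4 to 6 it was called higher with AMPA (0.10 ± 0.03), glyphosate+2,4-D (0.18 ± 0.03) and AMPA+2,4-D (0.09 ± 0.03), and in none after rescaling to TPM, where the differences ran from -0.04 to 0.07. Against replicates 1 to 3 the log2 difference was -0.49 to -0.39 and was called in all 5 exposures. An opposite-strand gene, AC092115.2, overlaps 575 bases of NQO1 exon and was at 0 to 2.91 FPKM.

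OSGIN1 (ENSG00000140961, chromosome 16, 83948282 to 83966332, plus strand), a stress-induced gene linked to growth arrest, had the widest gap between the unexposed sets. It was at 18.4, 22.0 and 22.6 FPKM in replicates 1 to 3 and at 6.07, 6.16 and 6.11 in replicates 4 to 6. Glyphosate libraries gave 8.77, 8.54 and 8.41 FPKM, AMPA libraries 9.71, 9.72 and 9.43, and 2,4-D libraries 8.96, 8.42 and 8.85. Glyphosate+2,4-D libraries gave 9.08, 7.44 and 8.21 FPKM, and AMPA+2,4-D libraries 7.92, 7.98 and 7.88. All 15 lay between the sets. OSGIN1 was higher than replicates 4 to 6 by 0.33 (AMPA+2,4-D) to 0.58 (AMPA), SE 0.06, with limma adjusted p from 7.56e-07 to 0.000346, and by 0.27 to 0.49 after rescaling to TPM. Its log2 difference from replicates 1 to 3 was -1.29 to -1.04. The related gene OSGIN2 was at 4.64 to 5.04 FPKM in replicates 1 to 3, 3.02 to 3.5 in replicates 4 to 6 and 3.88 to 5.08 in exposed cells.

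**Figure D3:**
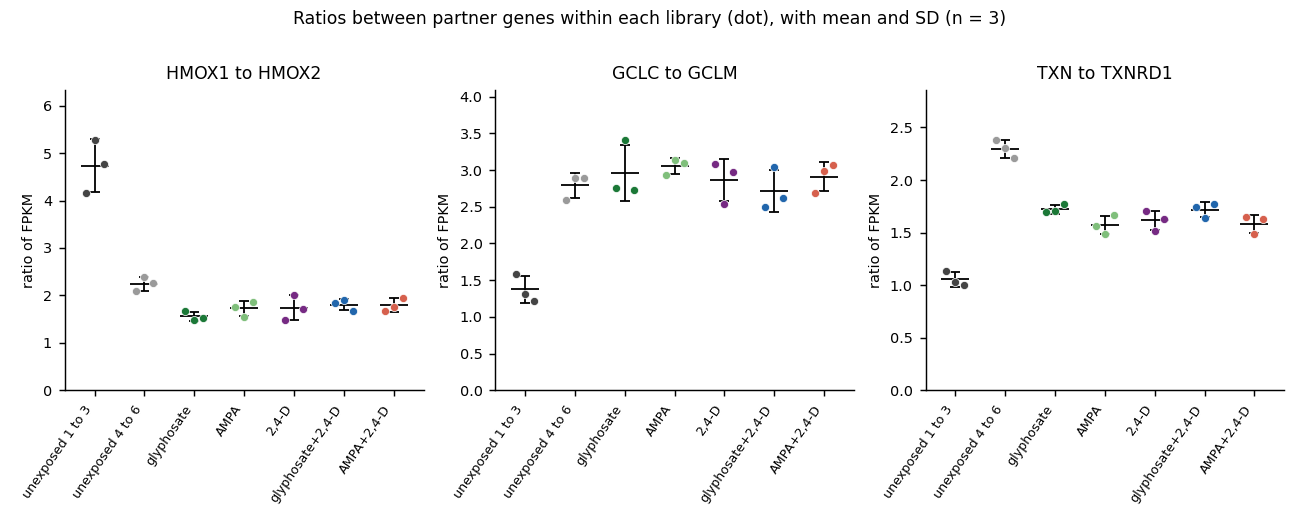
Ratios of FPKM between partner genes (vertical axes, linear, from 0) in each library (dot), with mean and SD of 3 libraries, for the 7 sets on the horizontal axis. HMOX1 to HMOX2 falls from 4.73 in unexposed replicates 1 to 3 to 2.25 in replicates 4 to 6 and to 1.48 to 2.02 in exposed libraries, GCLC to GCLM is similar in replicates 4 to 6 and exposed libraries, and TXN to TXNRD1 in exposed libraries (1.49 to 1.77) lies between the unexposed sets.

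When all 6 unexposed libraries formed 1 group, few members passed the test. Lower were GCLM, HMOX1 and SRXN1 with glyphosate (3 of 9, beside 25.1% of all genes), HMOX1 and SRXN1 with AMPA (2 of 9, 24.8%), with 2,4-D (2 of 9, 22.6%) and with glyphosate+2,4-D (2 of 9, 22.7%), and HMOX1 with AMPA+2,4-D (1 of 9, 24.4%). None was higher by limma (beside 27.7, 28, 25, 25.4 and 26% of all genes in the same order) or by voom on the recovered reads, and none was higher at an unadjusted p under 0.05 in limma. The log2 difference of HMOX1 was -1.08 to -0.87 (SE 0.20) and held in all 21 fits that each left out 1 library, in each exposure. That of GCLM with glyphosate, -0.83 ± 0.34 (adjusted p = 0.0454), was lost in 18 of 21 such fits, with adjusted p from 0.052 to 0.139, and its SE reflects the gap between the unexposed sets. Without unexposed replicate 4 the counts became 5 with glyphosate, 4 with 2,4-D, 4 with glyphosate+2,4-D and 3 with AMPA+2,4-D. For AMPA+2,4-D the count was likewise 3 without replicate 5 or without replicate 6. Without glyphosate replicate 3 the count with glyphosate fell to 1, and without 2,4-D replicate 1 or 2 that with 2,4-D fell to 1.

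Between the 5 exposures no difference was called in any of the 9 genes in the limma fit with 6 groups. Of the 10 pairs, AMPA+2,4-D against glyphosate had 3.68% of all genes called, AMPA+2,4-D against AMPA 2.71%, AMPA+2,4-D against glyphosate+2,4-D 0.261%, glyphosate+2,4-D against AMPA 0.0373%, and each of the other 6 pairs 0%. Members called were 0 in each pair, also at an unadjusted p under 0.05 and by voom. The interaction terms, which ask whether a mixture differed from the sum of its compounds, were called for HMOX1 in both mixtures and for SRXN1 with AMPA and 2,4-D, where 33.6% (glyphosate and 2,4-D) and 36.7% (AMPA and 2,4-D) of all genes were called. Each such term contains the unexposed mean. The spread in that fit includes the gap between the unexposed sets. In a fit added after seeing the data, with the unexposed sets as separate groups, OSGIN1 was lower with AMPA+2,4-D than with AMPA (-0.25 ± 0.06, adjusted p = 0.02, where 9.56% of all genes were called). GCLC was higher with AMPA+2,4-D than with glyphosate (0.14 ± 0.04, adjusted p = 0.0346, 10.7% of all genes). The levels were 7.88 to 7.98 against 9.43 to 9.72 FPKM for OSGIN1 and 21.4 to 22.5 against 19.3 to 20.3 for GCLC, without overlap. No other difference between exposures was called in the 9 genes in that fit. The 95% intervals, not adjusted for the number of pairs, reached from -0.38 to 0.37 over the 9 genes and 10 pairs, and a pair that was not called is not thereby shown to be alike. Glyphosate and AMPA share the aminomethylphosphonic acid part, and glyphosate carries an added carboxymethyl group. Their doses differed (5.6 and 34 µM), so the values stand side by side only, as in HMOX1 at 12.6 ± 0.591 and 13.8 ± 1.04 FPKM (SD, n = 3).

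Of the 3 main regulators, KEAP1 was lower in all exposures, while NFE2L2 and BACH1 were not. NFE2L2 was at 37.8 to 39.2 FPKM in unexposed replicates 1 to 3, 37.8 to 40.9 in replicates 4 to 6 and 38.8 to 48.0 in exposed cells. It was called higher in AMPA+2,4-D alone (0.20 ± 0.04 against all 6 unexposed libraries, limma adjusted p = 0.000579), and not after rescaling to TPM. Its mRNA level does not show the amount of NRF2 protein, which is set largely by degradation. KEAP1 was at 19.7 to 22.7 FPKM in replicates 1 to 3, 14.9 to 17.7 in replicates 4 to 6 and 12.7 to 14.9 in exposed cells. It was lower in all 5 exposures against both sets, by a log2 difference of -0.61 to -0.52 against replicates 1 to 3 and of -0.29 to -0.20 against replicates 4 to 6. BACH1 was at 8.83 to 9.87 FPKM in replicates 1 to 3, 6.65 to 6.92 in replicates 4 to 6 and 8.14 to 9.59 in exposed cells. Exposed cells were thus higher in BACH1 than replicates 4 to 6, by 0.30 to 0.41, and were called in no exposure against replicates 1 to 3. KEAP1 and BACH1 were both higher in replicates 1 to 3 than in replicates 4 to 6, by 0.33 ± 0.07 and 0.41 ± 0.04.

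**Figure D4:**
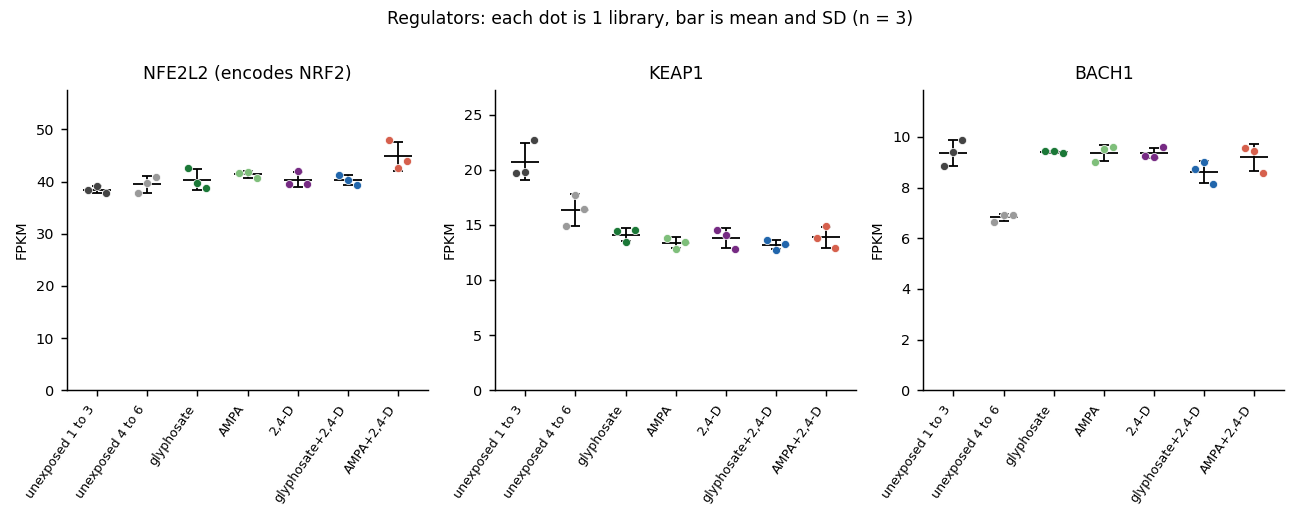
FPKM of NFE2L2, KEAP1 and BACH1 (vertical axes, linear, from 0) in each library (dot), with mean and SD of 3 libraries, for the 7 sets on the horizontal axis. NFE2L2 stays between 37.8 and 48.0 FPKM in all libraries, KEAP1 is highest in unexposed replicates 1 to 3, and BACH1 is lowest in replicates 4 to 6 at 6.65 to 6.92 FPKM.

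Among 15 genes of NRF2 pathway control, which include the regulators above, 5 to 7 were higher and 4 to 5 lower than in unexposed cells, depending on the exposure, with a median log2 difference of 0.05 to 0.18. Of all tested genes, 25 to 28% were called higher and 22.6 to 25.1% lower in these comparisons, which is the background for the lists below too, and their median was 0.00 to 0.01. The median of the list was -0.11 (glyphosate+2,4-D) to 0.01 (glyphosate) against replicates 1 to 3. Against replicates 4 to 6 it was 0.09 to 0.18, so it was positive in every exposure there but not against replicates 1 to 3. After rescaling to TPM, 3 to 5 were higher and 4 to 6 lower than in unexposed cells. The genes of the small MAF partners MAFF and MAFK rose in all 5 exposures. MAFF went from 5.02 to 6.44 FPKM in all 6 unexposed libraries to 11.1 to 15.4 in exposed ones, and MAFK from 12.3 to 14.7 to 21.9 to 31.2, without overlap. Their log2 differences were 0.93 to 1.30 (SE 0.06) and 0.77 to 1.10 (SE 0.07). Between the unexposed sets the difference was -0.13 ± 0.06 for MAFF and 0.05 ± 0.08 for MAFK, not called (limma adjusted p = 0.0986 and 0.707). NFE2L3, a relative of NRF2, rose by 0.48 to 0.62. After rescaling to TPM these 3 genes remained called in all 5 exposures.

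Around the glutathione subunits, 4 to 5 of 20 genes of glutathione supply and use were higher and 5 to 10 lower than in unexposed cells, with a median of -0.24 to -0.17. Against replicates 1 to 3, 5 to 6 were higher and 11 to 14 lower, with a median of -0.48 to -0.31. Set against replicates 4 to 6, 6 to 8 were higher and 4 to 8 lower, with a median of -0.06 to 0.07, so the list was not lower against both sets. On TPM, 2 to 5 were higher and 8 to 11 lower than in unexposed cells. SLC7A11, the cystine importer that feeds glutathione synthesis, fell by 0.59 to 0.87 on the log2 scale, with 24.7 to 28.4 FPKM in replicates 1 to 3, 19.2 to 21 in replicates 4 to 6 and 11.6 to 15.6 in exposed cells. It was lower against each set. CHAC1, which degrades glutathione, fell by 0.78 to 1.16, from 4.63 to 6.78 FPKM in all unexposed libraries to 1.64 to 3.2. The mitochondrial glutaredoxin GLRX2 fell by 0.56 to 0.86, and the secreted glutathione peroxidase GPX3 rose by 0.32 to 0.71.

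Of 16 further genes of the thioredoxin and peroxiredoxin system, 2 to 5 were higher and 5 to 7 lower, with a median of -0.07 to 0.01, beside 25 to 28% of all genes higher and 22.6 to 25.1% lower. On TPM, 1 to 3 were higher and 7 to 10 lower. TXNIP, which binds thioredoxin and inhibits it, rose. It went from 0.569 to 0.746 FPKM in all 6 unexposed libraries to 2.21 to 2.72 in the exposed ones, a log2 difference of 1.00 to 1.12 (SE 0.05), and between the unexposed sets the difference was -0.07 ± 0.06, not called (limma adjusted p = 0.374). The methionine sulfoxide reductase MSRB1 fell by 0.54 to 0.64, SESN2 by 0.36 to 0.51 and PRDX2 by 0.24 to 0.35, each in all 5 exposures and against each set.

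NADPH, the electron source of both systems, is made by enzymes of which 6 were tested, and 4 were lower in each exposure, with a median of -0.37 to -0.23, beside 22.6 to 25.1% of all genes. The median was -0.46 to -0.36 against replicates 1 to 3 and -0.20 to -0.09 against replicates 4 to 6. IDH1, a cytosolic isocitrate dehydrogenase, fell from 117 to 166 FPKM to 47.1 to 73.8, with log2 differences of -1.46 to -1.07. PGLS fell by 0.20 to 0.38 and TKT by 0.11 to 0.29.

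Of 22 tested genes on a list of other NRF2-linked detoxification, 9 to 15 were lower and 1, RIT1, was higher than in all unexposed cells, beside 22.6 to 25.1% of all genes lower and 25 to 28% higher. Against replicates 1 to 3 the lower ones were 18 to 19, and against replicates 4 to 6 they were 7 to 8, with 3 to 6 higher. The median log2 difference of the list was -0.68 to -0.58 against replicates 1 to 3 and -0.10 to -0.02 against replicates 4 to 6, where that of all genes was 0.00 to 0.02 in both. CYP4F11 lay at 8.8 to 9.83, 3.51 to 3.79 and 1.63 to 2.88 FPKM in replicates 1 to 3, replicates 4 to 6 and exposed cells, and NQO2 at 5.45 to 6.08, 3.96 to 4.18 and 3.06 to 3.85. CES1 was at 0.628 to 0.843 FPKM in replicates 1 to 3, 1.36 to 2.04 in replicates 4 to 6 and 0.173 to 0.637 in exposed cells, and was called lower than replicates 1 to 3 in 4 exposures. RIT1, a small GTPase, was at 6.96 to 9.59 FPKM in exposed cells against 3.31 to 5.43 in unexposed ones.

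Beside HMOX1, 1 to 2 of 11 genes of heme and bilirubin handling were higher and 4 to 6 lower, with a median of -0.20 to -0.14, beside 25 to 28% of all genes higher and 22.6 to 25.1% lower. The median was -0.25 to -0.15 against replicates 1 to 3 and -0.15 to -0.09 against replicates 4 to 6, and after rescaling to TPM 0 to 1 were higher and 6 to 7 lower than in unexposed cells. ALAS1, the first and rate-limiting enzyme of heme synthesis, was at 20.4 to 21.6 FPKM in replicates 1 to 3, 15.9 to 16.7 in replicates 4 to 6 and 11.1 to 12.5 in exposed cells, a log2 difference of -0.65 to -0.59 from all unexposed cells. FECH, the last enzyme of the pathway, fell by 0.59 to 0.73. CPOX was higher by 0.24 to 0.28, and by 0.13 to 0.21 after rescaling to TPM, where 2 of the 5 calls held. Of 4 tested superoxide dismutase and catalase genes, 2 to 3 were higher and 0 to 1 lower, with a median of 0.08 to 0.26, and after rescaling to TPM 0 to 2 were higher. SOD1 and SOD2 were higher by 0.21 to 0.28 and 0.22 to 0.33, and each held in 4 of 5 exposures after rescaling to TPM. The copper chaperone gene CCS was called higher in 3 exposures and in none on TPM. CAT, the catalase gene, was lower in 4 exposures, by up to 0.27.

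The genes most like each member over the 7 sets were found by the root mean square difference between centred profiles of mean log2(FPKM + 1), among tested protein-coding genes. HMOX1 was nearest to TSPAN1 (0.05), which was at 12.4 to 15.7 FPKM in replicates 1 to 3, 6.62 to 7.54 in replicates 4 to 6 and 3.68 to 5.55 in exposed cells. TXNRD1 was nearest to DCBLD2 (0.10), at 42.8 to 45.5, 12.5 to 13.8 and 19.2 to 24.5 FPKM. OSGIN1 was nearest to S100A11 (0.08) and GCLM to ATP6V0D2 (0.08). The nearest genes of the members with small differences were TNK1 for NQO1 (0.02), DSTN for GCLC (0.03), RNF6 for PRDX1 (0.02) and C14orf119 for TXN (0.04), and that of SRXN1 was SAMD5 (0.07). None of these is another of the 9 genes.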

How the data were processed

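RNA of C3A cells was sequenced in 21 libraries: 6 unexposed and 3 for each of 5 exposures. Per the labels' protocols, QIAzol lysates were purified on RNeasy columns before SMARTer library construction, with the strand not stated. HISAT2 2.0.5, featureCounts 1.5.0-p3 and GRCh38 are named in the submitters' processing notes. The authors deposited FPKM values in 6 tables. How FPKM were scaled is not given in the sources used here.

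FPKM times gene length gave whole reads within 0.1 of a read, 15.2 to 24.35 M per library. The precision of a log2 difference is given by its SE. A gene was tested if all 6 tables listed it and 3 or more libraries had 1 FPKM or more. The test, on log2(FPKM + 1), used limma 3.58.1 in R 4.3.3 with a mean trend (Benjamini-Hochberg within a comparison over 13405 genes, called at an adjusted p under 0.05). One fit had 6 groups, and 1 had 7 with unexposed replicates 1 to 3 and 4 to 6 apart. Folds understate changes of low genes. The procedure was tested on simulated counts without a gap between the unexposed sets, so that test says nothing of such a gap. Tables were joined with pandas 2.3.3 and numpy 2.4.6 in Python 3.11.15, and data.table (1.17.8) read them in R. Figures were drawn with matplotlib 3.10.9.

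The members, gene lists and tests were chosen with earlier results of these data known. Named were all 9 members, NFE2L2, KEAP1, BACH1, up to 4 genes per list (those called in most exposures, ties by the smallest of the largest adjusted p) and the 3 protein-coding genes nearest to each member, of which the first is printed. Some genes that this rule names are not reported here. HMOX2, TXN2, TXNRD2 and OSGIN2 were added as paralogs after their values were seen. Other settings were no filter, an offset of 0.1, factors from median-of-ratios, rescaling each library to the same FPKM total (TPM), compared groups alone, the replicate number as a block, leaving out libraries or sets, voom on recovered reads, and, added after the data were seen, TPM with the same genes and the unexposed sets as separate groups.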

Additional observations from a re-analysis of the deposited data

Results flagged for a closer look

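In 3 cases a limma interaction term was called. The term is the mixture plus unexposed minus the single exposures, on log2(FPKM + 1), with all 6 unexposed libraries. A call does not by itself show that 2,4-D acted differently beside the other compound. HMOX1 had an interaction of 1.15 ± 0.31 (SE) for glyphosate and 2,4-D (adjusted p = 0.0079) and of 0.985 ± 0.308 for AMPA and 2,4-D (adjusted p = 0.0182). SRXN1 had one of 0.849 ± 0.322 for AMPA and 2,4-D (adjusted p = 0.0466). A positive term says that the mixture was less low than the sum of both single differences. HMOX1 was at group means of 12.6 FPKM with glyphosate, 13.8 with AMPA, 14.0 with 2,4-D, 14.7 with glyphosate+2,4-D and 14.3 with AMPA+2,4-D. Mixtures and single compounds thus lay at nearly 1 level, so the HMOX1 terms largely repeat their shared difference from unexposed cells. In the same fit HMOX1 with glyphosate+2,4-D differed by 0.21 from glyphosate and by 0.07 from 2,4-D, neither called. Such terms were common, since 33.6 and 36.7% of all genes had one called. Every term contains the unexposed mean, and each of the 3 moved with it. With unexposed replicates 4 to 6 alone the HMOX1 terms were 0.675 and 0.513 and the SRXN1 term 0.361, and with replicates 1 to 3 alone 1.619, 1.457 and 1.338, all called. Leaving out each library in turn kept both HMOX1 calls in 21 of 21 fits and the SRXN1 call in 3 of 21, with adjusted p up to 0.097. Without AMPA+2,4-D replicates 1 and 3 together only 1 AMPA+2,4-D library remains, so that fit cannot decide on the AMPA terms.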

How the results depend on the processing

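Among 1440 single-gene values recomputed for the 9 genes, 1202 kept their direction and side of the threshold, 80 turned sign with no call either way, 31 lost a call, 99 gained one and 28 reversed. The reversals all came from which unexposed libraries were used. Without unexposed replicates 1 to 3, the log2 difference became 0.103, 0.177 and 0.088 for NQO1 (AMPA and the mixtures with glyphosate and AMPA), 0.685, 0.683 and 0.715 for TXNRD1 (glyphosate, 2,4-D and glyphosate+2,4-D), 0.124 and 0.173 for GCLC (AMPA and AMPA+2,4-D) and 0.188 for TXN (2,4-D). For OSGIN1 it became 0.427, 0.577, 0.453, 0.373 and 0.327 (glyphosate, AMPA, 2,4-D and the same mixtures). Without unexposed replicates 4 to 6, it became -0.794 and -0.765 for TXNRD1 (AMPA and AMPA+2,4-D), -0.210, -0.224, -0.184 and -0.182 for TXN (glyphosate, AMPA and the mixtures) and -0.123 for PRDX1 (glyphosate). The replicate block gave these same values, since unexposed replicates 4 to 6 have no partner number and drop out of it.

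Counts of members moved likewise, given in the order glyphosate, AMPA, 2,4-D, glyphosate+2,4-D, AMPA+2,4-D. With the replicate block or without replicates 4 to 6, 9, 8, 9, 8 and 8 were lower, and 18 interaction terms were called. Pairs of exposures then gave 1 call with the block and 2 without replicates 4 to 6. Without replicates 1 to 3, 1 was lower with glyphosate and 1 with 2,4-D, 4, 6, 3, 5 and 6 were higher, 3 pair calls and 7 interaction terms appeared. With compared groups alone 1 was lower in each of the first 4. Voom gave 5, 5 and 4 lower in the first 3 and 3 in the last. TPM gave 4 lower with AMPA and 2 with AMPA+2,4-D, and 5 and 2 with the same genes tested. Separate unexposed groups gave 2 pair calls. Without AMPA+2,4-D replicates 1 and 3, 3565 genes were called for AMPA+2,4-D in place of 6758, and 1 interaction term. TPM moved the median of all genes against unexposed cells from between 0.001 and 0.014 to between -0.135 and -0.069.

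Leaving out each library in turn gave 6038 to 7135, 6102 to 7188, 5239 to 6508, 5452 to 6554 and 5540 to 6825 genes called, and 1 to 5, 2 to 3, 1 to 4, 2 to 4 and 1 to 3 members lower. Members higher and pair calls stayed at 0, and interaction terms at 2 to 3. The replicate numbers did not pair exposed libraries: same-numbered ones had correlations of deviations of -0.0608 to 0.0884 over 30 pairs, none above 0.1. SRXN1 (129 to 495 reads) and OSGIN1 (384 to 1513) rest on the fewest reads.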
